A study of Homo sapiens with 6 samples.

Results

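The 10 genes described here are targets of the hypoxia-inducible factors (HIFs) that are not glycolytic enzymes: CA9, CA12, EGLN3, BNIP3, BNIP3L, NDRG1, ADM, ANKRD37, VEGFA and DDIT4. They were taken by symbol from a table of 29476 genes, and all 10 were found. The set was chosen in part because CA9, EGLN3 and BNIP3 were lower in the si-NORAD libraries of these data, so the fold changes below describe the members and test nothing. The libraries came from A549, an established human lung adenocarcinoma cell line, grown in RPMI-1640 and transfected with Lipofectamine 3000. The controls are 3 libraries of cells given a negative control siRNA (si-NC), and the other 3 libraries are of cells given an siRNA (si-NORAD) to NORAD, a long noncoding RNA of the cytoplasm. The model is thus a single tumour line with a single siRNA label per arm. Replicates carry the numbers 4, 5 and 6 in each group. The labels do not say that these were separate cultures, so the spread between libraries may be technical. The sources used here do not give the oxygen level, the siRNA sequence or the time of harvest.

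HIFs are pairs of an oxygen-regulated alpha subunit and the stable partner ARNT. With oxygen, prolyl hydroxylases of the EGLN family mark the alpha subunit, and the VHL ubiquitin ligase sends it for degradation. Without oxygen the alpha subunit accumulates and the pair binds short DNA elements near its target genes. The targets described here serve acid handling, feedback on the oxygen sensor, removal of mitochondria, blood vessel growth and restraint of cell growth. Tumour cells, lung adenocarcinoma cells among them, often express several of these genes, and CA9 is widely used as a marker of hypoxic tumour areas.

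Total counts ran from 19332334 to 32760606 per library, and the members had from 31 counts (ANKRD37) to 10115 counts (CA12) in a library. NORAD was at 550, 461 and 423 CPM (library-scaled counts per 1e+06 counts) in si-NC 4, 5 and 6. In si-NORAD 4, 5 and 6 it was at 359, 372 and 399.6 CPM. Its log2 fold change was -0.34 (SE 0.11), and it did not pass in edgeR's quasi-likelihood test after Benjamini-Hochberg adjustment (adjusted p = 0.196). The CPM groups were apart, but by deposited FPKM (fragments per kilobase of gene and 1e+06 reads) they overlapped, with 75.9 in si-NC 6 and 76.4 in si-NORAD 6. Without si-NC 4 the log2 fold change of NORAD was -0.23 (edgeR adjusted p = 0.00757), and against si-NC 4 alone it was -0.55. The si-NC libraries were not alike. On the leading principal component of log2 CPM, which held 55.5% of the variance, si-NC 4 lay at -13.2, near the si-NORAD libraries (-19.2 to -15.3), while si-NC 5 and si-NC 6 lay at 21.3 and 42.2. Values that turn or move by over 1.5 times without some of these libraries are therefore given both ways for the members and for some genes of other lists. Other genes of those lists are given with a single value, which may move as much. All 14 markers of A549 and lung epithelium passed the low-count filter, with summed levels of 14300 to 19800 CPM over the controls and 15300 to 15400 CPM over the si-NORAD libraries. Of these markers, 13 had lower values after si-NORAD, where 49.1% of all genes tested did. In edgeR 0 passed and 1 was lower at an unadjusted p under 0.05, where 12.1% of all genes were. The median log2 fold change of the markers was -0.16. That median was -0.28 without si-NC 4 and 0.08 against si-NC 4 alone. Whether it bears on the fold changes of the HIF targets was not tested. The extraction text in the labels speaks of retina, but of 12 retina markers looked for, 8 were listed, 5 of them under 0.1 FPKM in every library. Their summed level was 3.06 to 4.57 CPM in the controls and 3.74 to 4.76 CPM after si-NORAD, and the highest, PDE6A, averaged 0.325 FPKM. Endothelial markers, mostly ESAM, summed to 27.9 to 32.6 and 28.2 to 31.3 CPM, fibroblast markers to 21.6 to 27.8 and 25.7 to 28.2 CPM, leukocyte markers to 9.85 to 15.5 and 9.08 to 9.93 CPM, and erythroid markers to 0 to 0.177 and 0.03 to 0.231 CPM.

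The core of a HIF site is ACGTG or GCGTG on either strand. RefSeq promoters of GRCh38.p14, 250 bases before to 50 bases after the transcript start, were matched for 7 of the 10 members (CA9, CA12, EGLN3, BNIP3, DDIT4, ADM and ANKRD37). A core was found in 6 of the 7, against 48.4% of all 27305 promoters of this length and 63.2% of the promoters of genes tested here. ACGTG alone was found in 4 of the 7, against 21.6% and 26.6%. Matches of this length are common in GC-rich sequence, and a match is a description of letters, not a binding site. The stretches below show where the cores lie in promoters of members that were lower in si-NORAD (CA9, BNIP3, ADM) and of members whose groups overlapped (CA12, DDIT4, ANKRD37). They run 5′ to 3′ on the gene's strand, with the cores in capitals.
CA9 (chr9:35673902-35673922, plus strand): ttccaatgCACGTacagcccg
BNIP3 (chr10:131982015-131982074, minus strand): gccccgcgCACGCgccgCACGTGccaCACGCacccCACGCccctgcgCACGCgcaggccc
ADM (chr11:10304964-10304984, plus strand): aggagcgcGCGTGgctgagga
CA12 (chr15:63382068-63382088, minus strand): atctcaccCACGCctgccagc
DDIT4 (chr10:72273791-72273811, plus strand): cgttgcttACGTGcgcccgga
ANKRD37 (chr4:185396676-185396705, plus strand): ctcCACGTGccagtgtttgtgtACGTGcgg
The CA9 core begins 18 bases before the RefSeq start and lies on the opposite strand. BNIP3 held 6 cores within 151 to 92 bases before its start, in a promoter of 80.7% GC, and 2 of these overlap in a palindrome, CACGTG. ANKRD37 held 3 cores, among them the same palindrome. DDIT4 held 4 cores spread over the window, ADM held 1 and CA12 held 2. In the EGLN3 window neither spelling occurred. In the GENCODE 29 annotation the CA9, CA12, ADM and ANKRD37 stretches lie inside annotated exons, since that annotation places transcript starts further upstream.

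**Figure D1:**
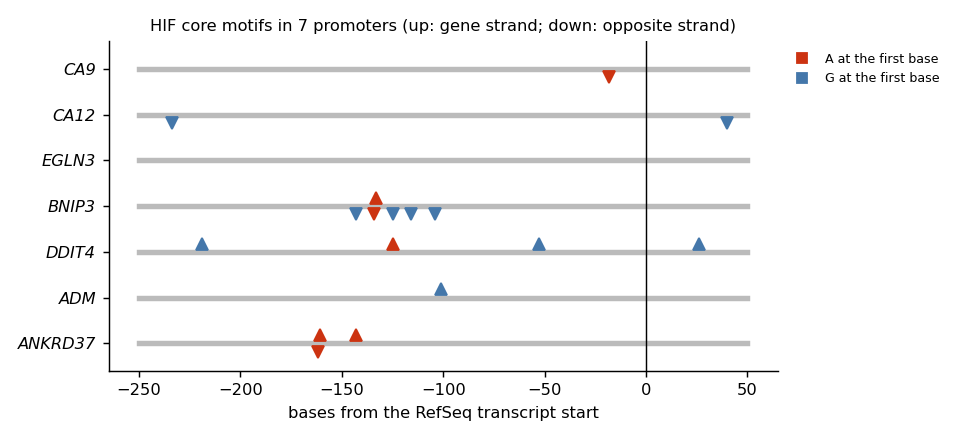
HIF core motifs in the 7 matched promoters. The horizontal axis is the distance in bases from the RefSeq transcript start, each triangle is a motif (up on the gene's strand, down on the opposite strand) and colour marks its opening base; BNIP3 holds 6 motifs within a short stretch and EGLN3 holds 0.

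Of the 10 members, 9 had lower fitted values in si-NORAD and 1, CA12, had a higher value, with a median log2 fold change of -0.35. Over all 15515 genes tested, 49.1% had lower values and the median was 0.0055. In 6 members (CA9, EGLN3, BNIP3, BNIP3L, NDRG1 and ADM) the 3 si-NORAD libraries all lay below the 3 controls by CPM, where 12.7% of all genes tested did so. By the deposited FPKM this held for 5, without BNIP3L, where 10.1% of all genes did so. Since the set was chosen in part on this contrast, nothing is read from these shares. In edgeR's quasi-likelihood test 0 of the 10 passed at an adjusted p under 0.05, and the test called 0.00645% of all genes (1 of 15515, not a member). At an unadjusted p under 0.05, 6 members were lower and 0 higher, where 12.1% of all genes were lower. DESeq2 called 4 members (CA9, EGLN3, BNIP3 and NDRG1, all lower), where it called 3.57% of the genes it gave an adjusted p, 2.48% lower. Without the low-count filter edgeR called 5, the same 4 and ADM, all lower, where 6.56% of genes were called, 3.57% lower. Without si-NC 4, edgeR called 7 members, 6 lower and 1 higher (CA12), but 39.3% of all genes were called in that fit, 20.3% lower and 19% higher. Leaving aside CA9, EGLN3 and BNIP3, which the choice of the set names, 6 of the other 7 members had lower values, 3 without overlap, and their median was -0.21. These 7 were also chosen with earlier results of these data known, so nothing is read from them either.

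**Figure D2:**
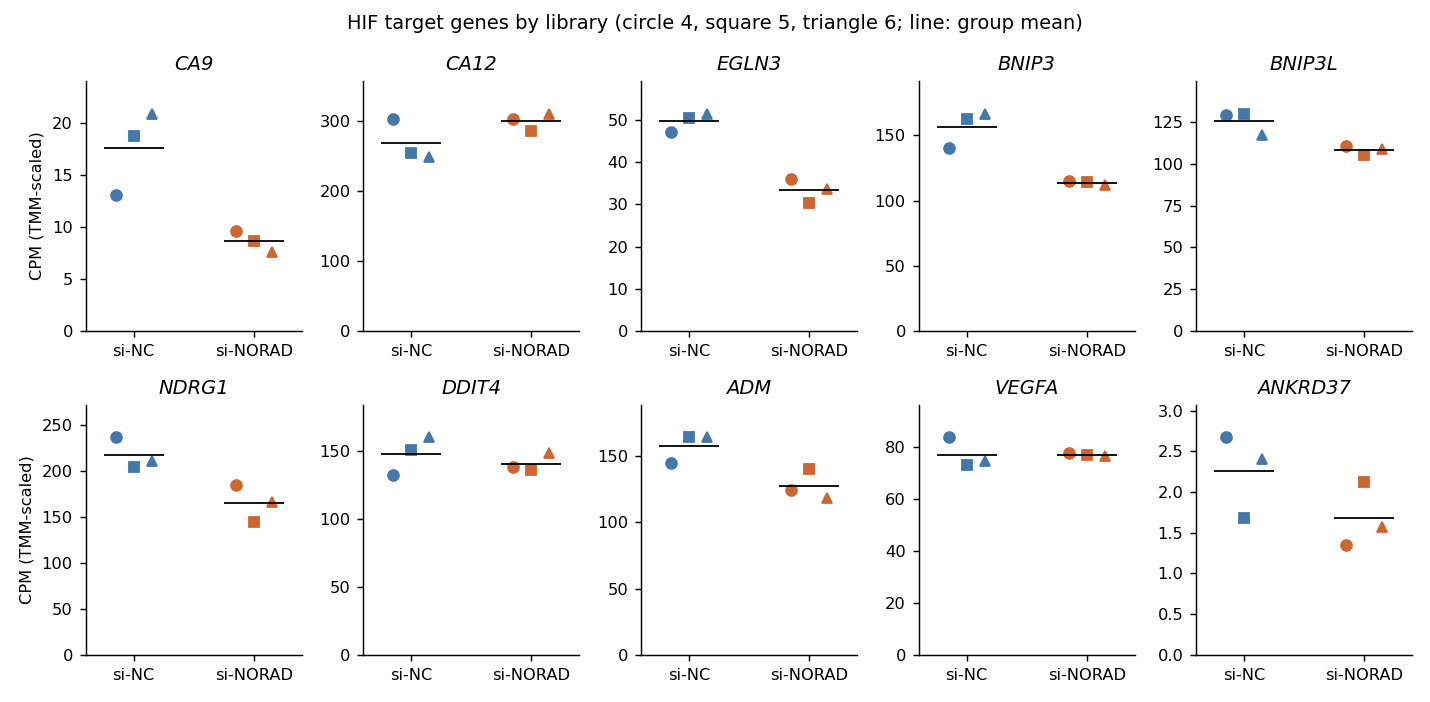
Level of each member in each library, in CPM on an axis from 0, with si-NC in blue, si-NORAD in orange, marker shapes for libraries 4, 5 and 6, and a line at the group mean. The si-NORAD points lie below all si-NC points for CA9, EGLN3, BNIP3, BNIP3L, NDRG1 and ADM. For CA12, DDIT4, VEGFA and ANKRD37 the points of the groups overlap.

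CA9 and CA12 encode carbonic anhydrases of the cell surface, which hydrate carbon dioxide outside the cell and help cells export acid. CA9 (ENSG00000107159, chromosome 9, positions 35673856 to 35681159 of GRCh38, plus strand) was at 13.1, 18.8 and 20.9 CPM in si-NC 4, 5 and 6. In the order of si-NORAD 4, 5 and 6 it was at 9.62, 8.64 and 7.60 CPM. All si-NORAD libraries were below all si-NC libraries, and si-NC 4 was the closest of its group to them. The means were 17.6 ± 4.04 and 8.62 ± 1.01 CPM (SD, n = 3 each). The fitted change was -50.7%, a log2 fold change of -1.02 (SE 0.18, 95% interval -1.42 to -0.62), which has the largest size among the members. Against si-NC 4 as the only control it was -0.58. Over the si-NC libraries CA9 had an SD of 23% of its mean CPM, where counting error alone would give about 5.14%.

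CA12 (ENSG00000074410, chromosome 15, positions 63321378 to 63382161, minus strand) was at 303, 255 and 249 CPM in si-NC 4, 5 and 6. The si-NORAD libraries 4, 5 and 6 had 303, 285 and 310.4 CPM. The groups overlapped, because si-NC 4 was as high as the si-NORAD libraries. Its log2 fold change was 0.16 (SE 0.09, interval -0.06 to 0.37), and it was -0.02 against si-NC 4 alone and 0.25 without si-NC 4. The ratio of these related genes does not depend on library scaling. Per length, CA9 was 18.9%, 32.3% and 36.7% of the FPKM of CA12 in the controls 4, 5 and 6, and 13.9%, 13.3% and 10.7% in the si-NORAD libraries 4, 5 and 6. The si-NORAD ratios thus lay below all si-NC ratios. CA9 shares part of its locus with ARHGEF39 on the opposite strand, and the sources used here do not say whether counting used strand. ARHGEF39 had a log2 fold change of -0.01, against -1.02 for CA9.

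EGLN3 encodes an oxygen-sensing prolyl hydroxylase that is itself induced by HIF and acts back on it. EGLN3 (ENSG00000129521, chromosome 14, positions 33924231 to 34462774, minus strand) was at 47.1, 50.3 and 51.4 CPM in si-NC 4, 5 and 6. In si-NORAD 4, 5 and 6 it was at 36.0, 30.2 and 33.6 CPM. The groups were well apart, and the 3 si-NC libraries lay close together, with means of 49.6 ± 2.22 and 33.3 ± 2.93 CPM (SD, n = 3 each). For EGLN3 the log2 fold change was -0.58 (SE 0.09, interval -0.78 to -0.37), and it was -0.49 against si-NC 4 alone and -0.61 without si-NC 4. EGLN1, the main hydroxylase that acts on HIF in most cells, showed no such difference, with a log2 fold change of -0.0028 (interval -0.16 to 0.16, edgeR adjusted p = 0.986). EGLN3 was at 29.3%, 33.3% and 33.9% of the FPKM of EGLN1 in the controls 4, 5 and 6, and at 23.1%, 20.1% and 21.4% in the si-NORAD libraries. The annotated EGLN3 locus is long and contains SPTSSA on the same strand, which had a log2 fold change of -0.30. Whether the genes share exons was not examined. Reads in any shared exon could have been lost or split by the authors' counting.

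BNIP3 and BNIP3L are related receptors in the outer mitochondrial membrane that bring mitochondria to autophagosomes. BNIP3 (ENSG00000176171, chromosome 10, positions 131966455 to 131982013, minus strand) was at 141, 162 and 166 CPM in si-NC 4, 5 and 6. The si-NORAD libraries 4, 5 and 6 had 115, 114 and 112 CPM. The si-NORAD libraries were nearly equal, and all were below si-NC 4, the lowest of the controls. The log2 fold change was -0.46 (SE 0.08, interval -0.65 to -0.27), and against si-NC 4 alone it was -0.31. BNIP3L (ENSG00000104765, chromosome 8, positions 26382898 to 26505636, plus strand) was at 129, 129.9 and 117 CPM in the controls, and its si-NORAD values were 110.5, 105 and 109 CPM, in the same order. The gap between the groups was small, and by FPKM si-NORAD 4 (26.1) lay above si-NC 6 (26.0). Its log2 fold change was -0.21 (SE 0.08, interval -0.38 to -0.04). BNIP3 was at 88.2%, 101% and 115% of the FPKM of BNIP3L in the controls, and at 83.9%, 88.0% and 83.3% after si-NORAD. The ratio in si-NC 4 was only just above that in si-NORAD 5, so the difference between these paralogs came mostly from si-NC 5 and si-NC 6. PNMA2, which overlaps the end of BNIP3L on the opposite strand, had a log2 fold change of 0.13.

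NDRG1 and DDIT4 encode stress-induced proteins that restrain growth: NDRG1 is tied to differentiation and suppression of spread in several tumours, and DDIT4 (also called REDD1) inhibits the growth kinase complex mTORC1 through the TSC complex. NDRG1 (ENSG00000104419, chromosome 8, positions 133237171 to 133302022, minus strand) was at 236, 204 and 211 CPM in si-NC 4, 5 and 6. After si-NORAD, libraries 4, 5 and 6 had 184, 144 and 166 CPM. The groups did not overlap, although si-NORAD varied by 12.1% of its mean. NDRG1 had a log2 fold change of -0.39 (SE 0.10, interval -0.63 to -0.16). Unlike CA9 and BNIP3, NDRG1 was highest in si-NC 4, so its log2 fold change was larger in size, -0.51, against si-NC 4 alone. DDIT4 (ENSG00000168209, chromosome 10, positions 72273920 to 72276036, plus strand) was at 132, 151 and 159.9 CPM in the controls and had 138, 136 and 148 CPM after si-NORAD. These groups overlapped, with si-NC 4 the lowest library of all. The log2 fold change of DDIT4 was -0.07 (SE 0.09, interval -0.27 to 0.13), and it was 0.09 against si-NC 4 alone and -0.15 without si-NC 4. TSC2, a subunit of the complex through which DDIT4 acts, had a log2 fold change of 0.19 (edgeR adjusted p = 0.227) and turned to -0.11 once a trend over gene length was taken out.

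ADM and VEGFA encode secreted signals to blood vessels: ADM is the vasodilator peptide adrenomedullin, and VEGFA is the main growth factor for endothelial cells. ADM (ENSG00000148926, chromosome 11, positions 10304680 to 10307397, plus strand) was at 144, 164 and 164 CPM in si-NC 4, 5 and 6. After si-NORAD, the libraries 4, 5 and 6 had 124, 139.9 and 118 CPM. The groups were separated by a narrow gap between si-NC 4 and si-NORAD 5. ADM had a log2 fold change of -0.30 (SE 0.09, interval -0.51 to -0.10), and it was -0.18 against si-NC 4 alone. VEGFA (ENSG00000112715, chromosome 6, positions 43770184 to 43786487, plus strand) was at 83.6, 72.8 and 74.6 CPM in the controls and had 77.6, 76.7 and 76.6 CPM after si-NORAD. The si-NORAD libraries lay within the range of the si-NC libraries. The fitted difference was near 0, with a log2 fold change of -0.00062 and an interval of -0.18 to 0.18. Changes of 1.5-fold or more lie outside that interval. The log2 fold change of VEGFA was -0.12 against si-NC 4 alone and 0.06 without si-NC 4. Once a trend over gene length was taken out, the log2 fold change of VEGFA, which has the longest FPKM length of the members, was -0.24. NRP1, a receptor that binds VEGFA and had the highest FPKM among VEGF ligands and receptors, had a log2 fold change of 0.09 (edgeR adjusted p = 0.543). It turned to -0.03 against si-NC 4 alone and to -0.11 once a length trend was taken out.

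ANKRD37 encodes a small ankyrin-repeat protein used in many hypoxia signatures. ANKRD37 (ENSG00000186352, chromosome 4, positions 185396021 to 185400628, plus strand) was at 2.67, 1.69 and 2.41 CPM in si-NC 4, 5 and 6. The si-NORAD values were 1.35, 2.13 and 1.57 CPM, in the same order. Its groups overlapped. With 31 to 57 counts per library, counting error alone would give an SD of about 14.4% of the mean in si-NC, where 22.6% was measured. The log2 fold change of -0.44 had an interval from -1.01 to 0.13, the widest of the members, and it was -0.69 when si-NC 4 was the only control. UFSP2 overlaps it on the opposite strand, with a log2 fold change of -0.03.

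**Figure D3:**
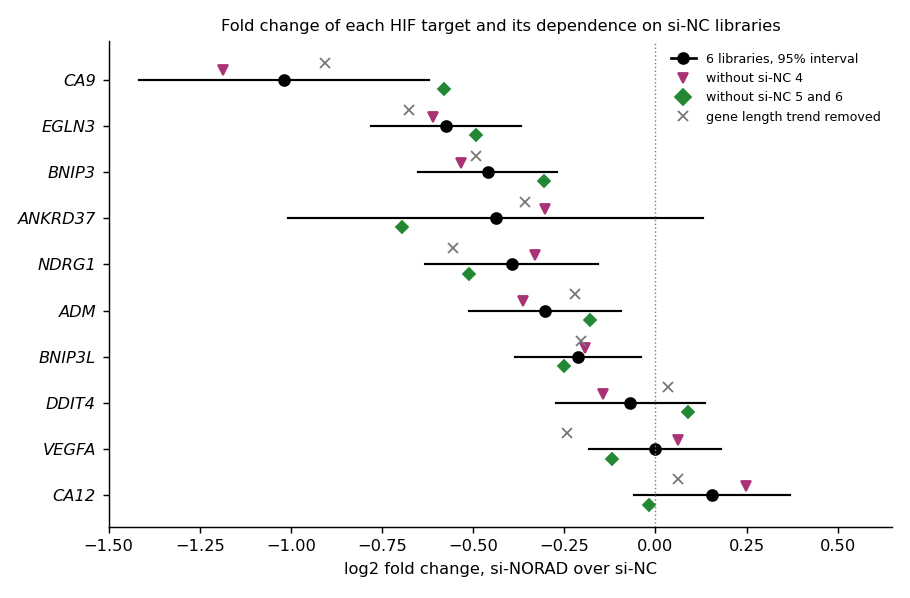
Log2 fold change of si-NORAD over si-NC for each member (black, with the 95% interval from edgeR), without si-NC 4 (purple), against si-NC 4 alone (green) and after a trend over gene length was taken out (grey). CA9 moves from -1.02 to -0.58 when si-NC 4 is the only control, and CA12, DDIT4 and VEGFA lie on either side of 0 depending on the libraries or the correction.

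Levels can be compared between members only per length. In si-NC the order of mean FPKM was DDIT4 (70.0 ± 4.53), ADM (56.5 ± 2.08), CA12 (36.1 ± 5.38), BNIP3 (28.7 ± 1.58), BNIP3L (28.5 ± 2.25), NDRG1 (21.6 ± 2.50), CA9 (10.2 ± 2.05), EGLN3 (6.59 ± 0.0875), VEGFA (5.23 ± 0.588) and ANKRD37 (0.858 ± 0.217). Among neighbours in this order, BNIP3 and BNIP3L were the pair whose libraries overlapped. In si-NORAD the leading 3 genes and NDRG1 and ANKRD37 kept their places. BNIP3L (25.6 ± 0.623) stood above BNIP3 (21.8 ± 0.266) there, and VEGFA (5.44 ± 0.0315) stood above CA9 (5.27 ± 0.611) and EGLN3 (4.61 ± 0.402). CA9 in si-NORAD ranged from 4.65 to 5.87 FPKM, a range that holds all 3 VEGFA libraries, so the order of those genes there is not resolved. The FPKM lengths of the members ran from 1670 bases for CA9 to 14431 bases for VEGFA.

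**Figure D4:**
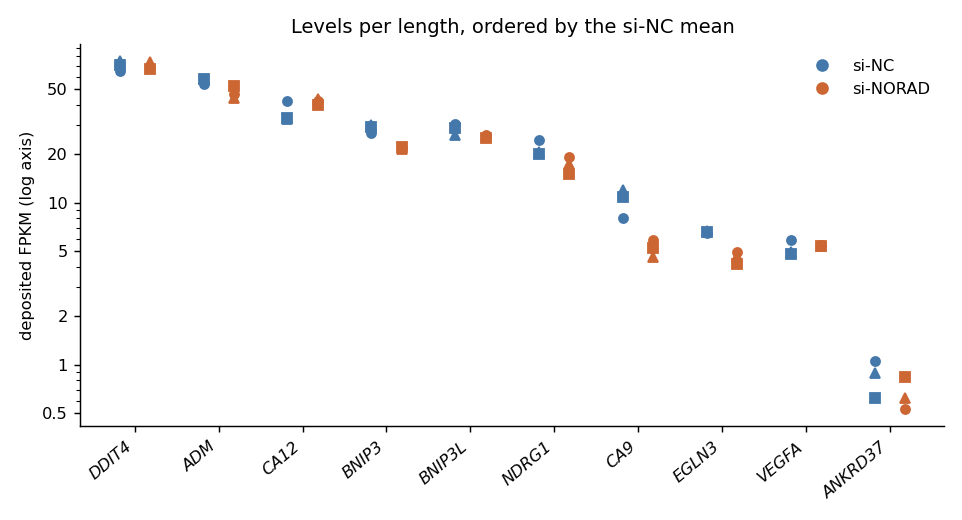
Deposited FPKM of each member in each library on a log axis, ordered by the si-NC mean, with si-NC in blue, si-NORAD in orange, and circles, squares and triangles for libraries 4, 5 and 6. Levels run from about 70.0 FPKM for DDIT4 to under 1.1 FPKM for ANKRD37, and CA9 drops from above EGLN3 and VEGFA in si-NC to their level in si-NORAD.

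The genes of the oxygen-sensing machinery had no common direction. Of the 15 tested, 7 had lower and 8 higher values after si-NORAD, and the median log2 fold change was 0.05. Against si-NC 4 alone, 14 of the 15 had lower values and the median was -0.06. Once a trend over gene length was taken out, 8 of the 15 had lower values and the median was -0.09. In edgeR's quasi-likelihood test 0 passed, and 4 were lower and 0 higher at an unadjusted p under 0.05. At that cutoff 12.1% of all genes tested were lower, and 1476 of 15515 were higher. DESeq2 called 3, all lower, where 2.48% of the genes to which it gave an adjusted p were called lower. Without si-NC 4 edgeR called 4 lower and 6 higher, where 20.3% and 19% of all genes were called. The alpha subunit genes HIF1A and EPAS1 had log2 fold changes of 0.05 (330 ± 22.4 against 341 ± 8.86 CPM) and 0.27 (117 ± 24.7 against 140.4 ± 4.72 CPM). Their partners ARNT and ARNT2 had 0.16 and 0.22. These 4 values had adjusted p of 0.743, 0.273, 0.479 and 0.319, all groups overlapped, and all 4 turned to values between -0.13 and -0.0054 against si-NC 4 alone. HIF is regulated mostly through the stability of the alpha protein, which RNA does not measure. The hydroxylase EGLN2 had a log2 fold change of 0.45 (adjusted p = 0.248), which was 0.70 without si-NC 4 (0.0056) and 0.020 against si-NC 4 alone. HIF1AN, which hydroxylates an asparagine of the alpha subunit and blocks its coactivators, had 0.08 (0.61). The coactivators CREBBP and EP300 had 0.45 and 0.47 (adjusted p = 0.237 and 0.291), 0.77 and 0.90 without si-NC 4, and -0.03 and -0.12 against si-NC 4 alone. With the length trend taken out, CREBBP and EP300 had 0.23 and 0.30. CITED2, which competes for these coactivators, had -0.17 (adjusted p = 0.246).

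In all 5 genes of the VHL ubiquitin ligase the si-NORAD libraries lay below the 3 controls by CPM, where 12.7% of all genes did so. Their log2 fold changes were -0.26 for VHL, the substrate receptor, -0.57 for ELOB and -0.49 for ELOC, its adaptors, -0.11 for the scaffold CUL2 and -0.51 for the RING subunit RBX1. edgeR adjusted p ran from 0.196 for ELOB, ELOC and RBX1 to 0.393 for CUL2, and DESeq2 called ELOB, ELOC and RBX1. By FPKM this held for 4 of them, since CUL2 was lower in si-NC 6 (9.917) than in si-NORAD 4 (10.005). The differences of VHL, ELOB, ELOC and RBX1 moved with si-NC 5 and si-NC 6: the median of the 5 genes was -0.65 without si-NC 4 and -0.13 against si-NC 4 alone. CUL2 did not follow, with -0.09 and -0.16. The corresponding medians of the 10 members were -0.32 and -0.28. The part of the difference among si-NC libraries in either set was not tested.

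Other HIF targets, a list of 47 tested genes that holds no member and no enzyme of the main glycolytic path, were lower in 37 cases and higher in 10, with a median log2 fold change of -0.12. In 17 of them the si-NORAD libraries all lay below the controls, and in 0 all above, where 12.7% of all genes tested lay below and 12.7% above. Like the members and the other lists, this list was chosen with earlier results of these data known. Nothing is therefore read from its shares, as a whole or by role. In edgeR's quasi-likelihood test 0 passed, and 13 were lower and 0 higher at an unadjusted p under 0.05. At that cutoff 12.1% of all genes tested were lower, and 1476 of 15515 were higher. DESeq2 called 4, all lower: ANGPTL4, IGFBP3, HILPDA and FAM162A, which encodes a mitochondrial protein. Of the genes to which DESeq2 gave an adjusted p, 2.48% were called lower. MIF, a secreted cytokine, had the log2 fold change of largest size in the list, -1.24 (SE 0.31), and is named because of that value. It had 27, 27 and 22 counts in the controls 4, 5 and 6 and 17, 14 and 6 counts in the si-NORAD libraries, too few for a firm estimate. The median was -0.17 against si-NC 4 alone and -0.13 without si-NC 4, so it was no smaller against si-NC 4 than against the other controls. The number of genes with lower values did change, from 38 against si-NC 4 alone to 29 without si-NC 4. Without si-NC 4, 13 of the list were called lower and 4 higher, where 20.3% and 19% of all genes were.

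By role, the secreted targets with the highest FPKM were ANGPTL4, an inhibitor of lipoprotein lipase, IGFBP3, which binds insulin-like growth factors, and STC2, a secreted glycoprotein. ANGPTL4 averaged 163 ± 12.1 CPM over the controls and 123 ± 3.27 CPM after si-NORAD (log2 fold change -0.41, edgeR adjusted p = 0.196, DESeq2 adjusted p = 0.00358). IGFBP3 was at 216 ± 3.95 and 176 ± 9.81 CPM (-0.29, edgeR adjusted p = 0.196, DESeq2 adjusted p = 0.0362). STC2 had a log2 fold change of -0.03. Among metabolic and stress targets, HILPDA, which holds fat in lipid droplets, was at 59.8 ± 8.68 and 40.1 ± 1.84 CPM (-0.58, edgeR adjusted p = 0.196, DESeq2 adjusted p = 0.00265; -0.35 against si-NC 4 alone), while the transferrin receptor TFRC had 0.24 (0.036 against si-NC 4 alone) and the glycogen branching enzyme GBE1 had -0.08. Of the 23 genes of this role, 20 had lower values, 10 of them without overlap, where 49.1% of all genes had lower values and 12.7% were lower without overlap. Among genes that modify collagen and matrix, all 6 had lower values, 4 of them without overlap, beside the same shares over all genes. The 3 with the highest FPKM were the collagen lysyl hydroxylase PLOD2 (-0.02), the matrix crosslinker LOXL2 (-0.09) and the collagen prolyl hydroxylase P4HA1 (-0.27). Targets in chromatin and transcription had 5 lower and 6 higher values, with -0.14 for CITED4, -0.01 for BHLHE40 and -0.15 for JMJD6.

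**Figure D5:**
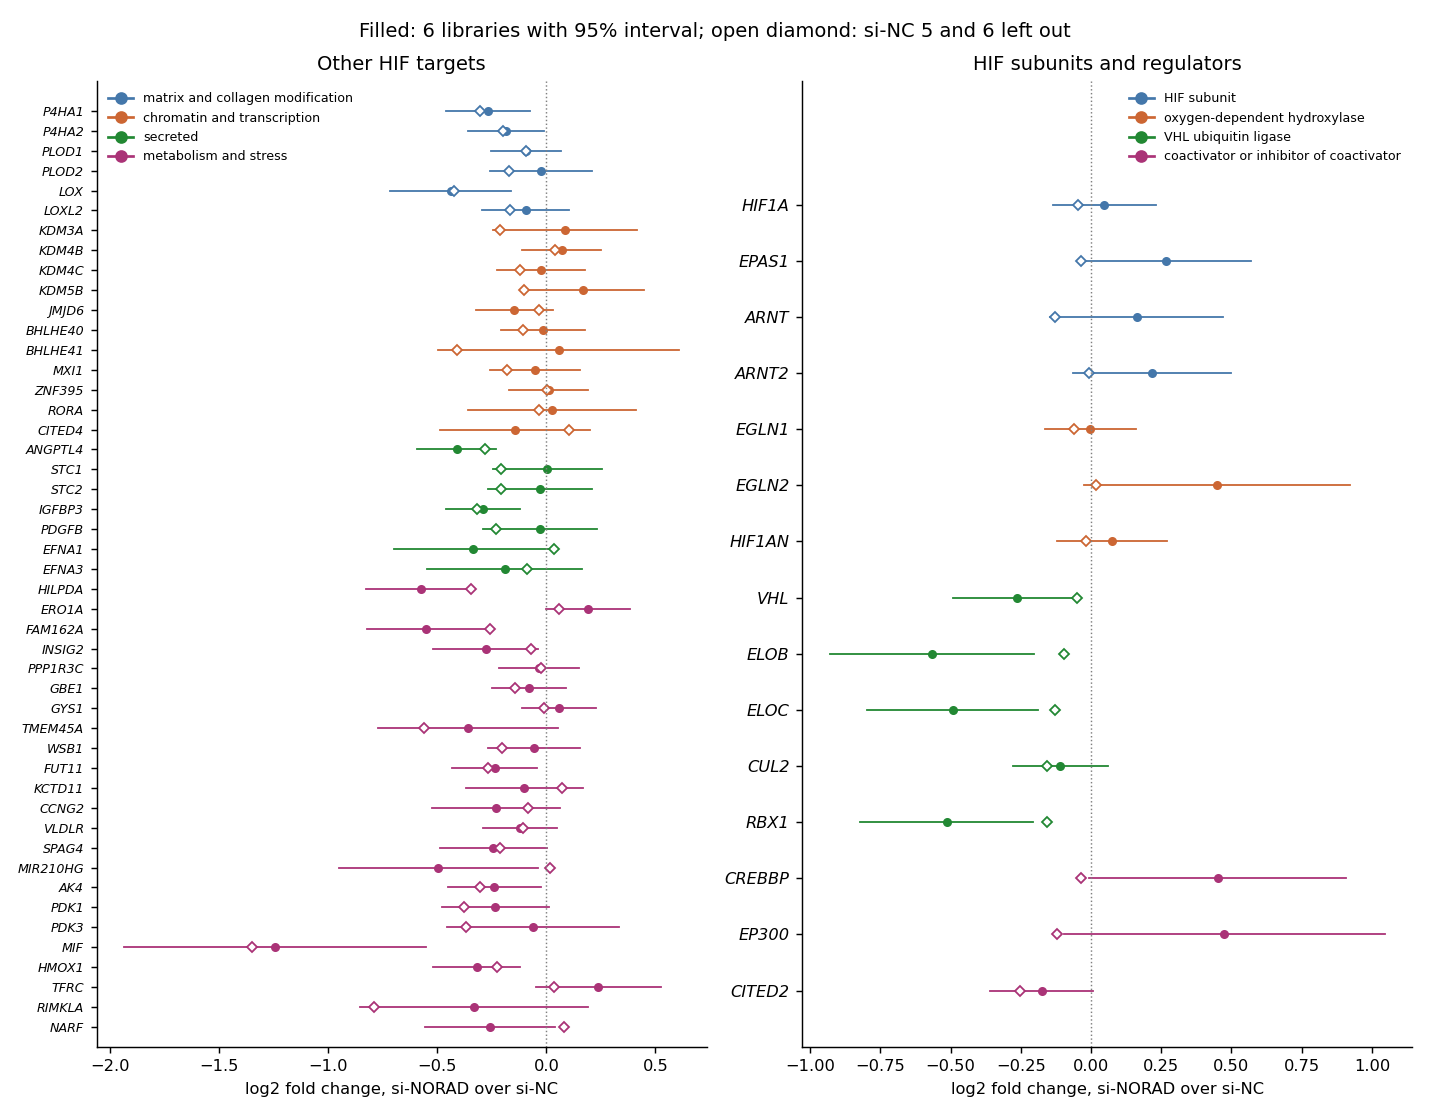
Log2 fold change of si-NORAD over si-NC with the 95% interval for 47 other HIF targets (left) and 15 HIF subunits and regulators (right), coloured by role, with open diamonds for the fit whose only control is si-NC 4. The diamonds of the VHL ligase genes ELOB, ELOC and RBX1 lie near 0, away from their filled points.

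Paralogs and partners of the members had lower and higher values in near equal number. Of 33 tested, 17 had lower and 16 higher values, with a median log2 fold change of -0.02. In edgeR 0 passed, and 1 was lower and 5 were higher at an unadjusted p under 0.05. At that cutoff 12.1% of all genes tested were lower, and 1476 of 15515 were higher. DESeq2 called 0. By role, all 6 other carbonic anhydrases had lower values (median -0.26), where 49.1% of all genes tested had lower values. All 4 genes of bicarbonate and proton transport (median 0.27) and all 3 of the DDIT4 paralog and TSC complex (median 0.19) had higher values. Against si-NC 4 alone those medians were -0.02, 0.0061 and 0.09. Once a trend over gene length was taken out they were -0.267, 0.175 and 0.019. This list too was chosen with earlier results of these data known, so nothing is read from its roles. VEGF ligands and receptors had 4 lower and 4 higher values, and mitophagy partners 5 and 3. The other carbonic anhydrases were at 4.04 FPKM or less, led by CA11 (log2 fold change -0.26, adjusted p = 0.384). NDRG3, the NDRG family gene with the highest FPKM after NDRG1, had -0.02, and BCL2L1, a survival protein bound by BNIP3, had -0.10. The anion exchanger SLC4A2 had 0.08, and ADM2, a peptide related to ADM, had -0.31 at 2.62 and 2.08 CPM. DDIT4 and VEGFA also respond to other stresses, among them the integrated stress response driven by ATF4. Of 18 tested ATF4 and stress-response genes, 12 had lower and 6 higher values, with a median of -0.12. In edgeR 0 passed, and 1 was lower and 0 higher at an unadjusted p under 0.05, beside the same shares over all genes. DESeq2 called 0. ATF4 had a log2 fold change of -0.20, SLC3A2, a subunit of amino acid transporters, had -0.18 and PSAT1, an enzyme of serine synthesis, had -0.09 (adjusted p = 0.257, 0.312 and 0.475). Against si-NC 4 alone these were -0.030, -0.011 and 0.010, and the list's median was -0.04.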

How the data were processed

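RNA was sequenced from 6 A549 libraries, 3 per siRNA, after depletion of ribosomal RNA and with a directional kit, per the labels' protocols. The submitters' processing notes name HISAT2, HTSeq 0.6.1, FastQC and the build GRCh38. The deposited table holds raw read counts per gene and FPKM, both made by the authors. FPKM gave 1 length per gene in 100% of values above 0, within 0.1%. Total counts of 19332334 to 32760606 make 1 count 0.0305 to 0.0517 CPM.

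edgeR 4.0.16 (R 4.3.3) was run on the counts: filterByExpr (15515 genes kept), TMM scaling, robust quasi-likelihood F test, two-sided, no covariate, all 6 libraries, Benjamini-Hochberg adjustment over all genes tested, called under 0.05. SE and intervals come from the fitted fold change, its F value and the moderated degrees of freedom. The fits were tested on simulated data. Alternatives were RLE or upper quartile scaling, other filters, DESeq2 1.42.0, limma 3.58.1 (voom, or log2 of FPKM plus 1 or 0.1 with at least 0.5 FPKM in 3 libraries), the replicate number as a block, non-robust estimation, a loess trend over gene length (span 0.3) removed, and leaving out libraries. When si-NC 4 is the only control, that library is assumed to vary like si-NORAD, so only sizes are given.

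Members and lists were chosen with earlier results of these data known. Genes named are the members, NORAD, all tested machinery genes and the genes with the highest FPKM in each role of the other lists (1 per role for partners, 3 for the rest), plus genes that overlap members, and FAM162A and MIF, which were named after their values were seen. No library pair of a group agreed within sampling noise (chi-square per degree of freedom 2.36 to 50.4). Promoter sequences are RefSeq's, and positions are from GENCODE 29, both on GRCh38. Some genes and results are not reported here. 0 columns of other samples were present.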

Additional observations from a re-analysis of the deposited data

How the results depend on the processing

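Of the 180 alternative values for the members' log2 fold changes, 12 turned in sign, all in DDIT4, CA12 or VEGFA, whose intervals include 0. CA9, EGLN3, BNIP3, BNIP3L, NDRG1, ADM and ANKRD37 stayed below 0 in all 18 alternatives. Over all genes, edgeR called 1935 without the low-count filter, 5 with the trend over gene length removed and 2 with the replicate number as a block; DESeq2 called 382, limma-voom 2, and limma 3 with either FPKM pseudocount. Leaving out each library in turn gave 0 to 6251 genes, 0 to 7 members, 0 to 17 other HIF targets and 0 to 10 machinery genes called; every highest value is the fit without si-NC 4. Without the low-count filter 5 members, 6 other HIF targets and 5 machinery genes were called, and by DESeq2 4, 4 and 3. The deviations of same-numbered libraries correlated at -0.03, -0.02 and -0.07. The si-NORAD libraries differed little from each other, so these values cannot decide whether same-numbered libraries were prepared together.

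Signs turned as follows, in log2 fold change. Against si-NC 4 alone: DDIT4 0.090, CA12 -0.018, HIF1A -0.047, EPAS1 -0.035, ARNT -0.13, ARNT2 -0.0054, HIF1AN -0.017, CREBBP -0.035, EP300 -0.12, SLC4A2 -0.036, BCL2L1 0.066, NRP1 -0.031, CITED4 0.11 and PSAT1 0.010. With the length trend removed: DDIT4 0.035, HIF1AN -0.16, SLC4A2 -0.024, TSC2 -0.11, NDRG3 0.027, NRP1 -0.11, BHLHE40 0.011 and PSAT1 0.0047. On FPKM plus 1 and plus 0.1: VEGFA 0.052 and 0.062, EGLN1 0.056 and 0.058, NDRG3 0.036 and 0.037, BHLHE40 0.047 and 0.050, PLOD2 0.045 and 0.046, STC2 0.034 and 0.036. VEGFA was 0.00091 with the 1 CPM filter, 0.0021 with voom, 0.0014 with the replicate block and 0.0041 with upper quartile scaling, where EGLN1 was 0.0020. Leaving out each library in turn gave ranges that cross 0 for VEGFA (-0.041 to 0.061), HIF1A (-0.0033 to 0.095), EGLN1 (-0.021 to 0.026), NDRG3 (-0.060 to 0.023), CITED4 (-0.25 to 0.076), BHLHE40 (-0.088 to 0.031), PLOD2 (-0.12 to 0.056) and STC2 (-0.12 to 0.066). The cause was not tested. With 31 to 57 counts per library, depth limits ANKRD37 most among the members.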
